A study of Homo sapiens with 151 samples.

Results

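The metallothionein genes MT3, MT2A, MT1E, MT1M, MT1A, MT1B, MT1F, MT1G, MT1H and MT1X, named here in genome order, were followed through ChIP-seq peak lists of HepG2, an established cell line from a human hepatocellular tumour. They are 10 of 20033 protein-coding genes of GENCODE 44 and were taken by their symbols on chromosome 16 of hg38. Each list holds the peaks of 1 DNA-associated protein (DAP) that carried a FLAG epitope tag and was pulled down with the Monoclonal Anti-FLAG M2 antibody from formaldehyde-crosslinked HepG2 cells. No other treatment was named. All but 6 of 127 lists are the authors' preferred data sets and enter every count below, 15 of them from non-TF DAPs and the rest from transcription factors (TFs). The 24 input libraries, made without antibody, served as controls for the peak calls. A tagged protein stands for its untagged form, and the lists do not say whether the cells came from 1 clone. For each gene the lists were counted that have a peak overlapping the 250 bp on either side of the canonical transcription start site (TSS), and the remaining peaks of the cluster were then described.

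Metallothioneins are small, cysteine-rich proteins that bind zinc and copper in the normal cell and cadmium when it is present. Their genes are induced by metals through MTF1, a zinc-sensing TF that binds metal response elements, and by glucocorticoids and oxidative stress, and the liver is a main site of MT2A and MT1 expression. MT3 is best known from the brain. MTF1 itself is not among the lists analysed here, so the counts concern other DAPs at these promoters.

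The promoters carry their metal response elements mostly in the bases just before the TSS, and 4 of them are printed here because they span the range of peak counts: MT2A and MT1X are at the top, MT1H had few peaks, and MT1B had none. Each is the hg38 reference of the 200 bases before the canonical TSS, written 5′ to 3′ along the strand of the gene. Capitals mark the metal response element core, TGCACNC or TGCGCNC, on either strand and with overlaps allowed.
MT2A, chr16:56608384-56608583, plus strand: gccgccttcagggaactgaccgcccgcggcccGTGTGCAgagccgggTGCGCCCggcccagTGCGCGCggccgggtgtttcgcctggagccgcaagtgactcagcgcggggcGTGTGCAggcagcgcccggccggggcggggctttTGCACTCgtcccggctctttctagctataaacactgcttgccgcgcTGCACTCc
MT1X, chr16:56682270-56682469, plus strand: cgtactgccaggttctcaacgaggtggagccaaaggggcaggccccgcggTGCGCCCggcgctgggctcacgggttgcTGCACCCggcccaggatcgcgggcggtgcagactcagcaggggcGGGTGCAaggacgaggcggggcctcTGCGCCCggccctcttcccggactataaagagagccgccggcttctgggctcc
MT1H, chr16:56669614-56669813, plus strand: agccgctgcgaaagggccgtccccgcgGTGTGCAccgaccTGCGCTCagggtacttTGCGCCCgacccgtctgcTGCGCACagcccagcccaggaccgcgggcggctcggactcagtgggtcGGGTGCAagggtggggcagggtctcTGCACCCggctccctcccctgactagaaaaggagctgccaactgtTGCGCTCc
MT1B, chr16:56651686-56651885, plus strand: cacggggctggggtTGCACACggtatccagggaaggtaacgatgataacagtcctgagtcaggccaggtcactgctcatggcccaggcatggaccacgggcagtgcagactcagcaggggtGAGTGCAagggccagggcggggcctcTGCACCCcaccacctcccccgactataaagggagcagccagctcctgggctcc
In the whole 501-base windows the core occurred at 8 places in MT2A, 8 in MT1H, 7 in MT3, 6 in MT1F, 6 in MT1G, 4 in MT1E, 4 in MT1M, 4 in MT1X, 3 in MT1B and 1 in MT1A. At least 1 core was found in 50.1% of the windows of all 20033 protein-coding genes and 3 or more in 7.49%. The TATAAA core occurred in the windows of MT3, MT2A, MT1E, MT1B, MT1G and MT1X, against 11.8% of all windows. GGGCGG, the GC box that SP1-like factors bind, occurred in every member window and in 69.5% of all windows. TGACNNNGC, the core of the antioxidant response element, was present in MT2A, MT1B and MT1X and in 20.4% of all windows. CACGTG, the E-box of MYC-like factors, was present just inside the transcripts of MT1A, MT1G and MT1H and in 11% of all windows. A match of letters is a description of the window and not of binding.

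Of the 10 members, 8 had a peak in at least 1 preferred list and 2 were highly bound, meaning that at least 31 lists (25% of the preferred lists) had a peak there. Among all protein-coding genes 66.6% had at least 1 list and 33.2% had at least 31, and with 10 members neither count is far from these shares. MT2A stood highest with 63 lists, more than at 91.8% of protein-coding genes, and MT1X followed with 40 lists. MT1E and MT1F had 30 lists each, MT1G 25, MT1A 13, MT1M 7 and MT1H 2. MT3 and MT1B had no peak in any preferred list, as was true of 33.4% of protein-coding genes. The members' median was 19 lists, and that of all protein-coding genes was 12. In all, 210 of the 1210 possible pairs of a list and a member had a peak (17.4%), and over all protein-coding genes the share was 18.1%. Each DAP has 1 list, so no replicate error stands beside these counts, and small differences such as that between MT1E and MT1G cannot be judged. A gene with no peak in a list is one where none passed the authors' threshold, which is not the same as no binding.

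**Figure D1:**
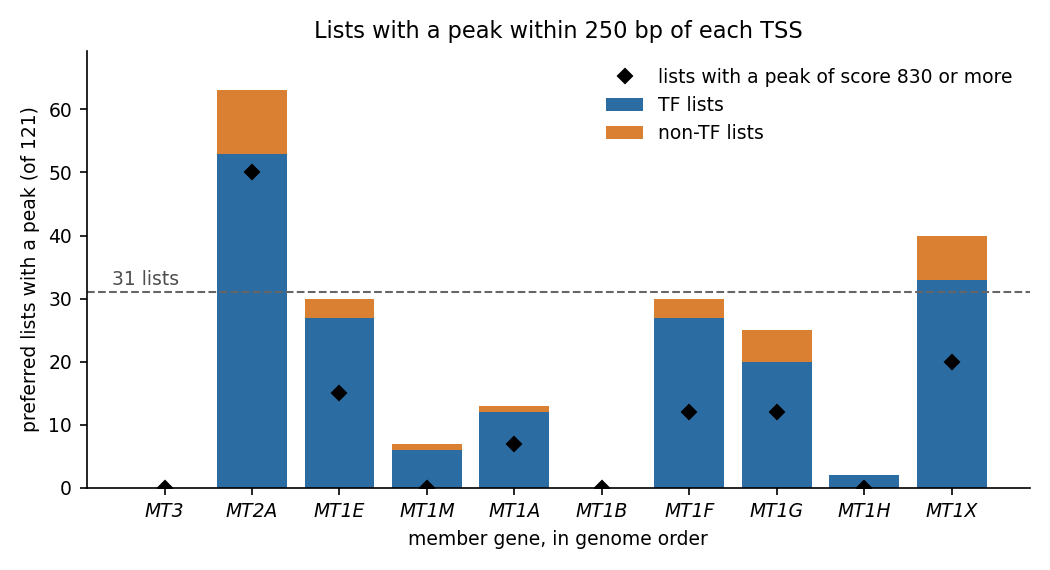
Number of preferred lists with a peak within 250 bp of the TSS (vertical axis) for each member in genome order (horizontal axis), with TF lists and non-TF lists stacked and diamonds for lists with a peak of score 830 or more. MT2A has 63 lists and MT1X 40, the only members above the dashed line at 31 lists, while MT3 and MT1B have none.

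The level of a member did not follow its place in the row. From MT3 to MT1X the start sites span 92942 bp, and the highest count, at MT2A, lies between MT3 with 0 lists and MT1E with 30. MT1B, with 0 lists, starts 6073 bp before MT1F, with 30. MT1G and MT1H are read in opposite directions from start sites 1749 bp apart, and had 25 lists and 2 lists with none in common. MT1G had a peak in 20.7% of all preferred lists, so the lack of a shared list among only 2 says little. The 250 bases before the TSS of MT1G and MT1H were the most alike of all 45 pairs of members, with 80.16% identity in a global alignment. The next pair, MT1E and MT1M, had 75.48% identity and 30 and 7 lists. CpG content separated 1 member: the windows of 9 members met a CpG rule (GC over 50% and observed over expected CpG over 0.6), as did 67.5% of all windows, and MT1B did not, with an observed over expected ratio of 0.241. MT3, the other member with no peak, had the highest GC content, 70.1%, and a ratio of 0.878.

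Similar sequence also bears on whether short reads can be placed. Among the 470 words of 32 bases in each window, those found once in the genome made up all words at MT3, MT1E, MT1B and MT1X, 98.1% at MT2A, 97.9% at MT1F, 96.6% at MT1A, 95.5% at MT1G, 90.4% at MT1H and 90.2% at MT1M. The lowest shares were thus at MT1H and MT1M, the members with the fewest lists above 0, but MT3 and MT1B had no list and no repeated word. The part of read placement in the counts was not tested.

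At MT2A, the most widely expressed human metallothionein gene, the 63 lists were those of AFF1, BAZ2A, CAMTA1, CENPBD1, E2F8, E4F1, FOSL1, FOXC1, GLMP, GLYR1, HES4, HES6, HSF4, JRK, L3MBTL4, MED12, MED13L, MEIS2, MGA, MLXIP, NCOA1, NCOA2, PAX8, PHTF1, POU2F1, RCOR3, REV3L, SALL1, SALL2, SIX5, SLC30A9, SRY, STAT5A, TTF1, ZBTB12, ZFHX3, ZFP90, ZFP91, ZGLP1, ZIM2, ZMYM2, ZMYM4, ZNF148, ZNF160, ZNF18, ZNF219, ZNF275, ZNF280C, ZNF329, ZNF430, ZNF546, ZNF558, ZNF571, ZNF593, ZNF646, ZNF701, ZNF747, ZNF790, ZNF816, ZNF85, ZNF865, ZSCAN12 and ZSCAN25. Of these, 53 were TF lists and 10 were non-TF lists. For 15 of them MT2A was the only member with a peak, namely CAMTA1, CENPBD1, FOSL1, GLMP, MLXIP, REV3L, SALL2, SLC30A9, ZIM2, ZNF148, ZNF160, ZNF275, ZNF280C, ZNF646 and ZNF865. These 15 lists have a peak at 4.68% (GLMP) to 34.1% (SALL2) of all protein-coding TSS windows. MT2A is also the member with most lists, so the 15 are not read as a preference for it. SLC30A9, a zinc transporter family protein that has also been described as a nuclear receptor coactivator, is among these 15. Its peak at MT2A ranked 2035 of 10849 in its own list, which covers 17.9% of all protein-coding TSS windows, and it was not among those named by rank. By rank of signal within the list, SALL2, a spalt zinc finger TF, had the highest peak at MT2A (top 3.49% of its list, summit 120 bp before the TSS). ZNF790 followed (top 4.42%), and then ZNF18 (top 4.78%).

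MT1X, which lies last in the cluster, had peaks in the lists of AFF1, BAZ2A, E2F8, E4F1, GLYR1, HES6, HIC2, HKR1, L3MBTL4, MED12, MEIS2, MGA, NCOA2, PHTF1, POU2F1, RCOR3, SALL1, SMAD7, SP110, STAT5A, TTF1, ZBTB12, ZFP91, ZGLP1, ZMYM4, ZNF235, ZNF334, ZNF529, ZNF544, ZNF546, ZNF558, ZNF571, ZNF593, ZNF701, ZNF704, ZNF74, ZNF827, ZNF85, ZNF879 and ZSCAN12. Of these 40, the highest in their own lists were ZNF571 (top 7.23%), L3MBTL4 (top 9.03%) and ZGLP1 (top 9.21%). L3MBTL4 is an MBT domain protein, and ZGLP1 is a GATA-like zinc finger protein. ZNF334 and ZNF544 had a peak at MT1X and at no other member.

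MT1E and MT1F had the same number of lists, 30, and shared 15. At MT1E the lists were those of BAZ2A, E4F1, FOXC1, FOXO4, HES4, HKR1, HSF4, JRK, MGA, NCOA2, PHTF1, POU2F1, SALL1, SMAD7, SRY, STAT5A, ZBTB12, ZFP91, ZMYM2, ZNF219, ZNF329, ZNF558, ZNF571, ZNF74, ZNF747, ZNF75D, ZNF783, ZNF790, ZNF827 and ZSCAN25. ZNF790 (top 7.49%), ZFP91 (top 11.5%) and ZNF558 (top 15.8%) ranked highest there, and FOXO4, ZNF75D and ZNF783 had their only member peak there. At MT1F the lists were those of BAZ2A, E2F8, E4F1, FOXC1, HES4, HIC2, HKR1, HSF4, MEIS1, MEIS2, MGA, NCOA1, PAX8, PHTF1, POU2F1, RCOR3, SALL1, SMAD7, ZFHX3, ZFP90, ZFP91, ZNF235, ZNF329, ZNF430, ZNF529, ZNF546, ZNF704, ZNF74, ZNF790 and ZNF816. HKR1, a KRAB zinc finger protein now named ZNF875, ranked highest at MT1F (top 8.78%), ahead of HES4 (top 24.8%) and ZNF546 (top 29.8%).

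At MT1G, the member read from the minus strand, the 25 lists were those of BAZ2A, GLYR1, HIC2, HKR1, L3MBTL4, MED12, MED13L, MEIS1, MGA, POU2F1, RCOR3, SALL1, SIX5, SMAD7, STAT5A, TEAD2, ZBTB12, ZFP91, ZMYM4, ZNF235, ZNF528, ZNF546, ZNF558, ZNF701 and ZNF704. L3MBTL4 (top 7.49%), ZFP91 (top 14.5%) and BAZ2A (top 19.5%) ranked highest. TEAD2, a TF of the Hippo pathway, and ZNF528 had no peak at another member. At MT1H only CSDA and ZNF85 had a peak. CSDA, a cold shock domain protein now named YBX3, has a list of 861 peaks that covers 1.33% of all protein-coding TSS windows, and MT1H was its only member. Both MT1H peaks ranked in the lower part of their lists (top 60.4% each).

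MT1A had 13 lists, from E4F1, HES6, MGA, POU2F1, SALL1, SP110, STAT5A, ZBTB12, ZMYM4, ZNF552, ZNF704, ZNF74 and ZNF879. STAT5A, which acts downstream of cytokine receptors, ranked highest (top 20.4%), followed by E4F1 (top 28.8%) and MGA (top 38.8%), and ZNF552 had a peak at no other member. MT1M had 7 lists, from E2F8, MEIS2, MGA, SMAD7, STAT5A, ZNF18 and ZNF701. The best of these ranked in the top 66.3% (ZNF701), 66.8% (E2F8) and 67.6% (STAT5A) of their lists, and none had a score of 830 or more.

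DAPs with peaks at most members came largely from long lists. MGA, a T-box and bHLH protein that pairs with MAX, reached 7 members and left out MT3, MT1B and MT1H. POU2F1 (Oct-1), SALL1 and STAT5A reached 6 members each. BAZ2A, the NoRC chromatin remodelling subunit, E4F1, the inhibitory SMAD protein SMAD7, ZBTB12 and ZFP91 reached 5 each, and the atypical E2F protein E2F8 was the first by alphabet of those at 4. SALL1, ZBTB12, MGA and POU2F1 are 4 of the 5 longest preferred lists, with 61748, 57621, 45456 and 42562 peaks, and each has a peak at 46.6% to 51.8% of all protein-coding TSS windows. STAT5A had 6 members with 17173 peaks and 32.2% of all windows. HKR1, chosen after its values were seen, had 4 members with 8198 peaks and 15.6% of all windows. SMAD7 reached 5 members but not MT2A.

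**Figure D2:**
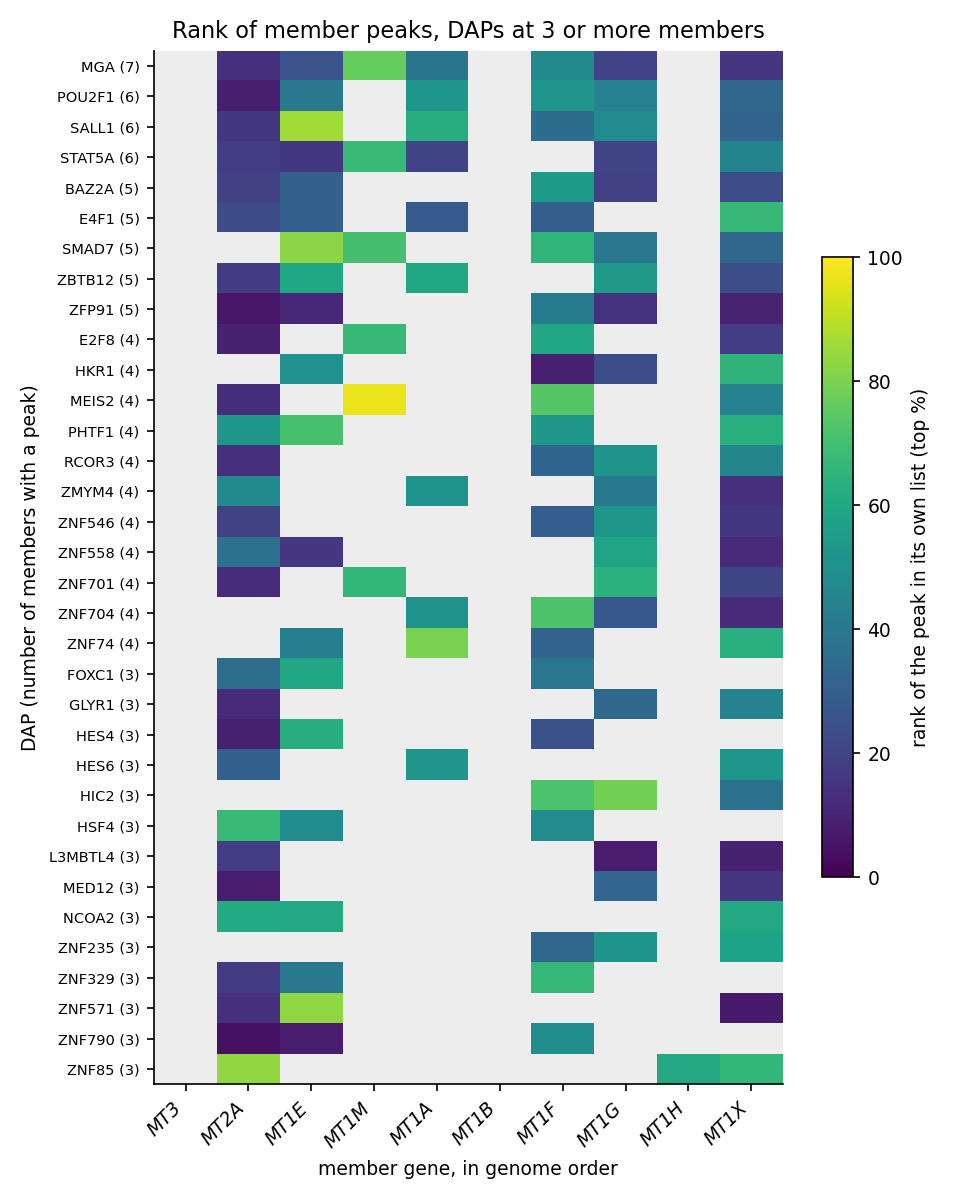
Rank of the peak within its own list (colour, as the top percent of the list by signal) for DAPs with a peak at 3 or more members (rows, with the number of members) at each member in genome order (columns), with grey where there is no peak. The columns of MT3 and MT1B are empty, MT1H is filled only by ZNF85, and MT2A holds many of the highest-ranked peaks.

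A longer list has more chances to hold any window. The shortest list, SCMH1 with 195 peaks, had a peak at 0.12% of all protein-coding TSS windows, and the longest, SALL1 with 61748, at 51.8%. Over the preferred lists the number of members with a peak rose with the length of the list in the same direction. The correlation was not computed over all genes, so its value shows nothing particular to the members. The number of members correlated with log10 of the number of peaks at Pearson's r = 0.701 and Spearman's rho = 0.760, each with a two-sided permutation p = 1.0e-05 (adjusted p = 1.5e-05), the smallest that 100000 draws can give. Without SCMH1 and CENPX, the 2 lists farthest from the median length, r was 0.713. Within the 8 input libraries that were the only control of at least 6 lists, r was positive in all, from 0.478 to 0.986, and its permutation p, exact below 10 lists, was under 0.05 in 6. Spearman's rho passed in 4 of the 8. A peak at a member was present in 83 lists and 38 had none. Among those 38 the longest was ZNF746 with 17467 peaks and 27.2% of all protein-coding TSS windows, chosen after its values were seen.

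**Figure D3:**
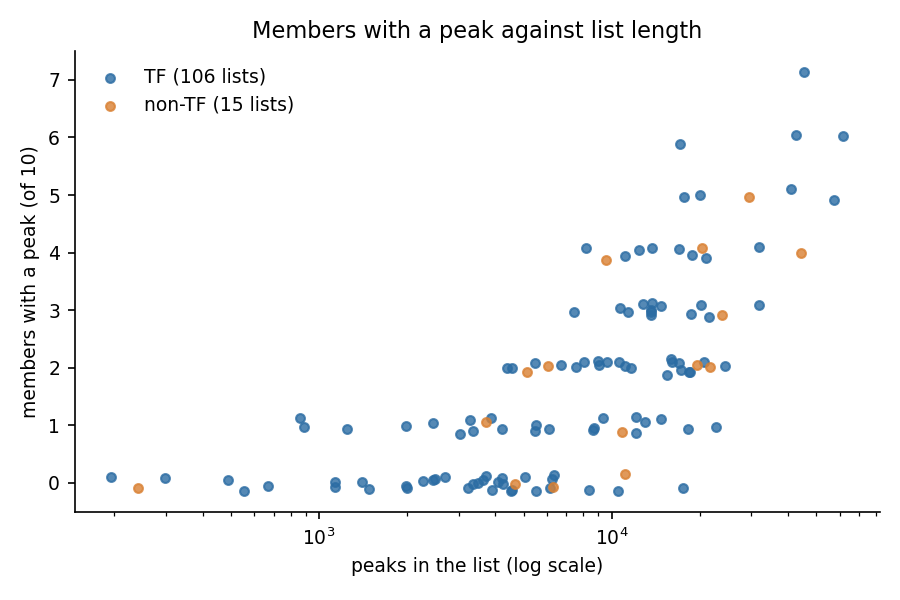
Number of members with a peak (vertical axis, of 10, points shifted slightly to separate them) against the number of peaks in the list (horizontal axis, log scale) for TF lists and 15 non-TF lists, 1 point per list. Lists at 5 or more members all hold at least 17173 peaks, and the lists at none extend from 195 to 17467 peaks.

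TF and non-TF DAPs did not differ detectably in the number of members with a peak. The classes are labels, and the TF class includes BAZ2A, named above as a chromatin remodelling subunit. The mean was 2.0 ± 1.69 members (SD, n = 15) for non-TF lists and 1.70 ± 1.70 (SD) over all TF lists, a difference of 0.302 with a two-sided permutation p = 0.57 (adjusted p = 0.57). Non-TF lists were somewhat longer, with a median of 10849 peaks against 8496.5, and with log10 length regressed out the difference was 0.00484 (permutation p = 0.99). Within the 4 input libraries that hold at least 2 lists of each class the difference ranged from -0.25 to 2.08 members. In the library with 15 lists it was 2.08 (exact permutation p = 0.048, 2 non-TF against 13 TF lists, one of 4 such comparisons and not adjusted). Non-TF lists at MT2A include the Mediator proteins MED12 and MED13L and the elongation factor AFF1.

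The share of lists with a peak at MT2A also differed between input libraries. Among the 8 libraries with at least 6 lists the lowest share was 14.3%. All 7 lists of one library had a peak there (median length 13641 peaks), 1 of 7 of another (6129 peaks) and 9 of the 15 lists of the largest library (5503 peaks). The parts of the input library and of list length in these shares were not tested.

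Peaks at the members lay mostly before the TSS. Summit positions over all protein-coding TSS windows are not given here, so this shows nothing particular to the members. For each list the peak of highest signal at a member was taken. At MT2A the median summit lay 115 bp before the TSS (from 502 before to 198 after), and 48 of 63 summits were before it. At MT1X the median was 123 bp before the TSS (35 of 40 summits before it), at MT1G 138 bp (23 of 25), at MT1A 201 bp (11 of 13), at MT1F 204 bp (27 of 30) and at MT1E 242.5 bp (25 of 30). The median peak was 480 bp long at MT2A and between 460 and 590 bp at the other bound members, so a peak can reach the window with its summit outside it. At MT1E 12 of 30 summits were inside the window, and at MT2A 51 of 63 were.

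**Figure D4:**
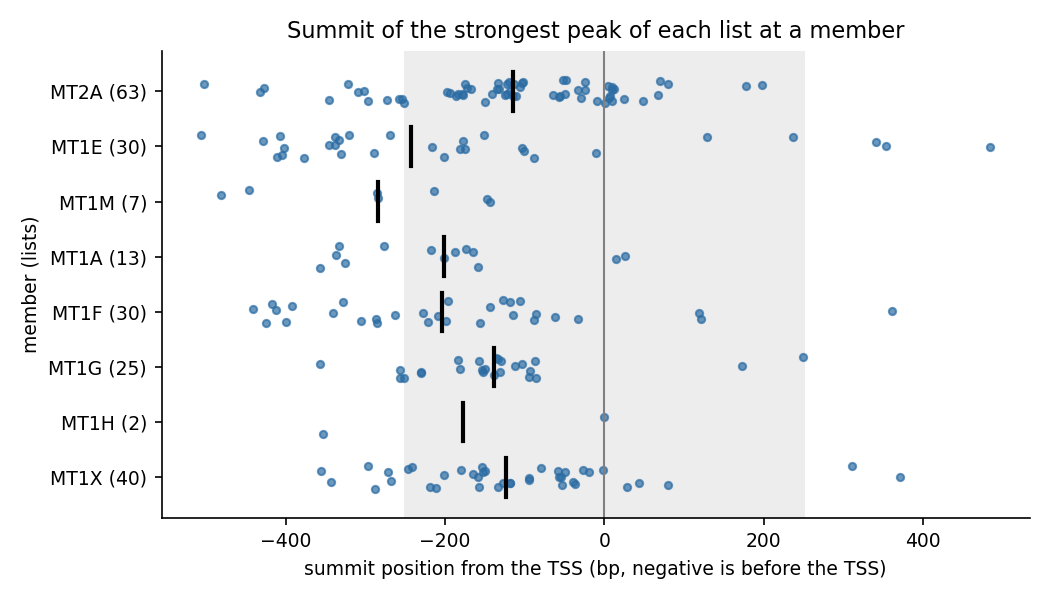
Position of the summit relative to the TSS in bp (horizontal axis, negative before the TSS) for the highest peak of each list, 1 point per list, at each bound member (rows, with the number of lists). Black bars are medians and the shaded band is the window of 250 bp on either side. Medians lie before the TSS in all rows, from 115 bp at MT2A to 284 bp at MT1M.

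By rank, the median of the 210 pairs at members was the top 44.3% of the list, and the median pooled over all 437990 pairs of a list and a protein-coding TSS window was the top 33.8%. MT2A ranked above that pooled median (top 23.5%), MT1X at it (top 33.8%) and the other bound members below it. Of the 210 pairs at members, 19 were in the top 10% of their list (9.05%, against 16.3% over all protein-coding genes) and 0 were in the top 1% (1.34% over all). MT2A held 12 of these 19 pairs, MT1X 4, and MT1E, MT1F and MT1G 1 each. The lowest median rank was at MT1M, the top 70.4%. Ranks are set within a list, because the signal is not scaled between lists, and they are a description without a test.

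Shared lists are read against how common the larger members are: MT2A had a peak in 52.1% of the preferred lists and in 75.9% of the 83 lists with a peak at any member, and MT1X in 33.1% and 48.2%. MT2A and MT1X shared 28 lists, 44.4% of those at MT2A and 70.0% of those at MT1X. Of the 30 lists at MT1E 76.7% were also at MT2A, of the 30 at MT1F 73.3%, of the 25 at MT1G 68.0%, of the 13 at MT1A 61.5%, of the 7 at MT1M 85.7% and of the 2 at MT1H 50.0%. The 75.9% includes the 15 lists with a peak at MT2A and no other member, so it is a high base for these shares. Only the shares of MT1E and MT1M lie above it. All but that of MT1H lie above the 52.1%, which in turn includes the lists at no member and is a low base. Sharing beyond these bases was not tested. MT1X shared 12 of the 13 lists at MT1A (92.3%), which are 30.0% of its own, and 20 of the 25 at MT1G (80.0%), which are 50.0% of its own, and 1 of the 2 at MT1H. Lists of long length sit at many members, as given above, and enter each of these shares.

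The cluster was then taken as a whole, from 5 kb before MT3 to 5 kb after MT1X, an interval of 105 kb with 502 peaks from 101 lists. The 20 lists without any peak in it were CENPX, DPF1, E2F7, EBF1, ELK4, FAM200B, HMGN3, NFIB, PBX3, PRDM4, PRMT5, SCMH1, TRIM24, ZBTB22, ZBTB47, ZFAT, ZNF45, ZNF688, ZNF853 and ZUFSP. Outside the member windows lay 230 peaks from 80 lists. Of these lists 62 also had a peak at a member, and 18 had peaks only elsewhere, namely ELK3, KAT6A, KLF15, LHX6, MZF1, NPAS2, NR1H2, PEG3, THAP1, ZNF140, ZNF222, ZNF251, ZNF284, ZNF439, ZNF559, ZNF669, ZNF746 and ZNF850. Another 21 lists had peaks at members only. When the central 100 bp of these peaks were merged, they formed 48 regions, of which 32 had a single list and 2 had at least 31.

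The most bound region outside a promoter window lies just before MT2A, at chr16:56606735-56607709, and its middle is 1362 bp before the TSS. It is 975 bp long, and its middle lies in no canonical GENCODE transcript of a protein-coding gene, lncRNA or unprocessed pseudogene. Other transcripts and the rest of the region were not checked. The MT2A promoter had 63 lists, counted by whole peaks that overlap its window. This region had 60 lists, counted by the merged central 100 bp of peaks outside the member windows, so the counts are unlike measures. By these central parts, at most 25 of the region's 60 lists overlapped on any 1 base, and whole peaks were not counted per base. The lists were those of AFF1, E2F8, E4F1, ELK3, FOSL1, FOXC1, GLMP, HES4, HES6, HIC2, HKR1, HSF4, KAT6A, KLF15, L3MBTL4, MED12, MEIS2, MGA, NCOA1, NCOA2, NPAS2, NR1H2, PEG3, POU2F1, RCOR3, SALL1, SIX5, SP110, SRY, TEAD2, THAP1, ZBTB12, ZFP91, ZGLP1, ZIM2, ZMYM2, ZMYM4, ZNF140, ZNF18, ZNF222, ZNF251, ZNF275, ZNF284, ZNF430, ZNF439, ZNF544, ZNF558, ZNF571, ZNF646, ZNF669, ZNF701, ZNF704, ZNF74, ZNF746, ZNF790, ZNF816, ZNF827, ZNF85, ZNF850 and ZSCAN25. Of the 60, 37 were also at the MT2A promoter (61.7% of the region's lists and 58.7% of the promoter's). Over all preferred lists the promoter had a peak in 52.1% and the region in 49.6%, so these shares are little above those of any list. Lists here but not at any member include those of ELK3, an ETS factor, KLF15, a GC-box zinc finger TF, NR1H2, the oxysterol receptor LXR beta, the circadian bHLH factor NPAS2 and the acetyltransferase KAT6A. The 300 bases around its most shared position, the base under the central 100 bp of peaks from most lists, are printed to set them beside the promoters.
Region before MT2A, chr16:56607256-56607555, plus strand: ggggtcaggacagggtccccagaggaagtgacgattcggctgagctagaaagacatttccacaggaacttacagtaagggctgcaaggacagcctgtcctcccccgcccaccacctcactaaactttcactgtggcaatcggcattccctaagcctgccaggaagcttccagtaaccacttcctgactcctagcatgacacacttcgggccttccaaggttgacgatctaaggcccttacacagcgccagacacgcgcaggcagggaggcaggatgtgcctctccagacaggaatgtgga
This stretch holds no metal response element core, so nothing is in capitals. Its GC content was 56.7% and its observed over expected CpG ratio 0.376, below the 64.3% and 0.859 of the MT2A window.

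Next came chr16:56643040-56643387 with 31 lists, whose middle is 512 bp before the start of the pseudogene MT1DP. A second region there, chr16:56643398-56643627, had 12 lists. The 31 lists were those of AFF1, BAZ2A, E2F8, FOXC1, GLYR1, HES4, HES6, JRK, MEIS2, MGA, POU2F1, RCOR3, SALL1, SMAD7, SP110, STAT5A, ZBTB12, ZMYM4, ZNF430, ZNF528, ZNF529, ZNF546, ZNF559, ZNF646, ZNF701, ZNF704, ZNF74, ZNF747, ZNF827, ZNF85 and ZNF879. They include 23 of the 40 lists at MT1X (57.5%, and 74.2% of the region's lists) and 22 of the 63 at MT2A (34.9% and 71.0%). At the other bound members, the share of their lists also found here ran from 43.3% (MT1E) to 85.7% (MT1M). Over all preferred lists the region had a peak in 25.6%, MT1X in 33.1% and MT2A in 52.1%. Lists of long length enter each of these shares, and their part was not tested. Within 250 bp of the MT1DP start itself 23 lists had a peak, more than at MT1M, MT1A or MT1H, and 11 lists had one at MT1CP. The pseudogenes MT1L, MT1JP and MT1IP had none.

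Both remaining regions of the 5 most bound flank MT2A. One is at chr16:56610107-56610711, with its middle 1825 bp after the TSS and inside an unnamed lncRNA on the other strand (ENSG00000260823.1). Its 19 lists were BAZ2A, E2F8, GLYR1, MEIS1, MEIS2, MGA, MZF1, PAX8, POU2F1, SALL1, ZNF18, ZNF280C, ZNF329, ZNF546, ZNF701, ZNF704, ZNF74, ZNF747 and ZSCAN25. The other, chr16:56603703-56603909, lies 4778 bp before the MT2A TSS, and its 11 lists were BAZ2A, GLYR1, MEIS1, MEIS2, POU2F1, RCOR3, SALL1, ZBTB12, ZMYM4, ZNF18 and ZNF701.

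**Figure D5:**
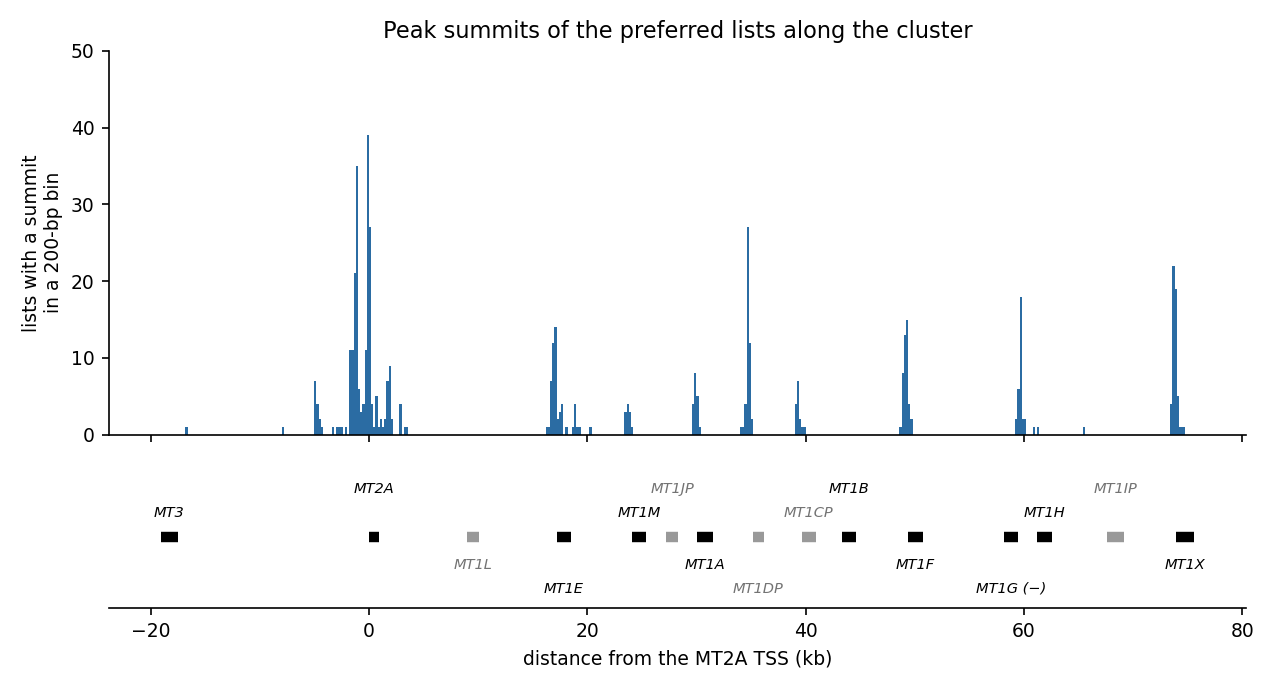
Number of preferred lists with a peak summit in each 200-bp bin (vertical axis) along the cluster, by distance from the MT2A TSS in kb (horizontal axis). Blocks below are gene bodies, black for the members and grey for pseudogenes, with (−) for the minus strand. The highest bin, with 39 lists, ends at the MT2A TSS, the next, with 35, lies 1000 to 1200 bp before it, and the bins around MT3, MT1B and MT1H are nearly empty.

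Genes beside the cluster were counted in the same way. BBS2, a ciliary trafficking gene, had 62 lists, more than at 91.3% of protein-coding genes, and NUP93, of the nuclear pore, 48 (82.2%). NUDT21, of the pre-mRNA cleavage machinery, had 59 (89.9%) and OGFOD1 58 (89.3%). NUDT21 and OGFOD1 start on opposite strands at 56451332 and 56451554, so their windows overlap and their counts are not independent. MT4, the metallothionein of squamous epithelia and the nearest gene before MT3 among these, had 1 (33.4%).

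A list of 24 other metal homeostasis genes was compared by the same count. All 24 had a peak in at least 1 list and 17 had at least 31 (70.8%), against 8 and 2 of the 10 metallothioneins and 66.6% and 33.2% of all protein-coding genes. With a score of 830 or more the 17 became 5, and 15.1% of protein-coding genes then had at least 31 lists. Their median was 40 lists, against 19 for the members and 12 for all protein-coding genes. Among the ZIP transporters, which bring zinc into the cytosol, SLC39A3 had 88 lists, SLC39A6 58, SLC39A13 52, SLC39A7 51, SLC39A10 45, SLC39A11 41, SLC39A1 32 and SLC39A9 31. Among the ZnT transporters, SLC30A6 had 73 lists, SLC30A5 53, SLC30A10 48 and SLC30A9 40. For copper, the chaperones CCS and ATOX1 had 53 and 40 lists, the importer SLC31A1 41 and ATP7B, the copper ATPase of the liver, 36. MTF1, the metal-sensing TF gene, had 33. The fewest lists were at SLC30A4 with 2, ATP7A with 5 and SLC39A5 with 10.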

How the data were processed

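The authors ran the ENCODE pipeline for ChIP-seq with input libraries as controls and deposited its optimal peaks, placed on hg38. Which aligner and which caller it used, in which version, is not given in the sources used here. In a deposited list, a peak has its place and summit, a score (540 to 1000, following the irreproducible discovery rate), a signal and a q column. The deposited signal is relative to a list's own input and not scaled between lists, so it was used for ranks within a list. The deposited q column was not used, since it falls below 0 in 43 lists and is no p-value. Depth is unknown, and a list stands for 1 DAP without replicates.

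The preferred lists hold 1410609 peaks, from 195 to 61748 per list with a median of 8680. Start sites are those of canonical transcripts in GENCODE 44. A list counts for a gene if a peak overlaps the TSS ± 250 bp. Peaks elsewhere were taken from 5 kb before the first to 5 kb after the last member, and their central 100 bp were merged. Correlations and the TF comparison used 100000 two-sided permutations, exact below 10 lists or for splits within an input library, and 3 p-values were adjusted together (Benjamini-Hochberg). Python 3.11.15, numpy 2.4.6, pandas 2.3.3, scipy 1.17.1 and Biopython were used, and sequences come from the hg38 reference. On simulated data 5401 of 5401 planted pairs of a list and a window were recovered.

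Named are all members with their lists, the 10 DAPs at most members, the 3 highest-ranked DAPs per member, the 5 most bound regions elsewhere and, of the metal genes, those with at least 31 lists and the 3 with fewest. The members and gene lists were chosen with earlier results of these data known. Alternatives changed the window, the score, the part of the peak, the flanks, the merging and the lists. Protein sequences were not used here, and a promoter sequence and a neighbouring gene are not reported here.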

Additional observations from a re-analysis of the deposited data

Results flagged for a closer look

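The 6 non-preferred lists enter no count of the report and only 1 alternative setting. They are outside the main measurement and gave 6 pairs of a list and a member with a peak of 60 possible (10%, against 17.4% in the preferred lists). ZNF431 (14575 peaks) had a peak at MT2A, MT1E and MT1G. EP300 (17599 peaks) and ZCCHC11 (7508 peaks) had a peak at MT2A, and ZZZ3 (9801 peaks) at MT1G. TSC22D2 (11692 peaks) and GPBP1L1 (73 peaks) had none at a member.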

How the results depend on the processing

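Of 90 counts of lists at a member under 9 alternatives, 75 stayed within 1.5 times the main count, and MT2A remained highest under each, with 50 to 78 lists. The 78 came with 1000 bp on either side, a window that reaches into the most bound region before MT2A. MT3 and MT1B had no list under any of the 9, and these counts of 0 are among the 75. A score of 830 or more moved most values: the pairs of a list and a member fell from 210 to 116, highly bound members from 2 to 1 (MT1X had 20 lists), lists elsewhere from 80 to 49, peaks elsewhere from 230 to 102, regions elsewhere from 48 to 22, lists in the most bound region from 60 to 37 and metal genes with at least 31 lists from 17 to 5, while 15.1% of protein-coding genes then had at least 31. With 1000 bp on either side of the TSS, and with any annotated TSS, 4 members were highly bound (39.5% and 39.4% of genes). Merging whole peaks left 18 regions elsewhere. Both correlations with list length and the TF difference kept their direction and their side of 0.05 under the alternatives over all lists (5 for the correlations, 6 for the difference). Within single input libraries r missed 0.05 in 2 of 8 and rho in 4 of 8, and the TF difference turned to -0.25 in 1 of 4 and passed at 2.08 in another (exact permutation p = 0.048). No paired analysis was possible because each DAP has 1 list, and for the same reason no replicate could be left out. Depth is unknown, so a list without a peak cannot be told from a shallow one.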
